A study of Mus musculus with 380 samples.

Results

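The replication-dependent histone genes are the clustered genes for the histones that package newly made DNA. They were taken here as every row whose symbol begins with Hist1h, Hist2h, Hist3h or Hist4h, which gave 68 of 23420 gene rows. By symbol, 6 belong to linker histone H1, 18 to H2A, 19 to H2B, 12 to H3 and 13 to H4. Hist3h2bb-ps, counted with H2B, is annotated as a processed pseudogene. The rule used symbols only and no measured value. Values for the 68 members were read in single T cells from B16F10 tumours, a transplanted mouse melanoma, and in 1 population well per plate, a library from many cells.

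The mice were C57BL/6, and each was labelled wild type (WT) or IL27raKO, a knockout of a chain of the interleukin-27 receptor. Each of 4 plates, for WT and KO-labelled CD8 and CD4 cells, gave 94 single-cell libraries and 1 well, made with the plate-based Smart-seq2 protocol. The titles hold the codes WT4 and KO4, and the number of animals behind each is not stated. The code p2 stands in the WT CD4 titles and p1 in the rest, with no meaning given, and the protocol text mentions only CD8+ cells. No age, sex or antibody gate is given in the labels used here. There was 1 plate per combination, so genotype cannot be told apart from plate or animal, and no test between plates was run.

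A cell was kept when at least 1000 genes were above FPKM 1, a fragment count scaled to transcript length and library depth. This is the level used throughout as detection. The filter kept 72 and 80 CD8 cells and 79 and 73 CD4 cells, WT before KO-labelled, of 94 each. The kept cells had a median of 3168, 2508, 2045 and 2218 genes in that order. The lineage labels matched Cd8a and Cd4, with Cd8a in 84.7% and 90% of CD8 cells and Cd4 in 89.9% and 84.9% of CD4 cells. Cd8a was in 5.06% and 4.11% of CD4 cells, and Cd4 in 5.56% and 0% of CD8 cells. Cd8b1, for the other CD8 chain, divided the lineages less sharply. It was in 88.9% and 82.5% of CD8 cells and in 30.4% and 28.8% of CD4 cells. Il27ra, the targeted gene, was still present in both KO-labelled plates. The CD8 shares were 65.3% for WT and 61.3% for KO-labelled, and the CD4 shares 43.04% and 47.9%. Its wells held 157.02 and 85.3 FPKM in CD8 and 243.4 and 72.7 FPKM in CD4, WT first, so the libraries are called KO-labelled.

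During S phase a cell needs histones in step with new DNA, and these genes are switched on together at that point. Their mRNAs are the known exception among animal mRNAs, because most end in a conserved stem-loop bound by the protein SLBP instead of a poly(A) tail. Smart-seq2 primes cDNA from poly(A), so it reads these genes only where a tail, a longer polyadenylated form or internal priming gives a start.

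All 68 symbols were found in the GENCODE M21 annotation of GRCm38, the assembly that mm10 names. On chromosome 13, 54 members lay between 21715763 and 23934851. Another 10 lay on chromosome 3 between 96219865 and 96270132, 3 on chromosome 11 between 58948920 and 58956830, and Hist4h4 alone on chromosome 6 at 136801553 to 136804415. A perfect stem of 6 bases that starts with GG, with a loop of 4 bases that starts with TT, was searched for in the annotated transcripts. It was found in 44 members, and in the other 24 these letters were not in the annotated transcript. The windows below are those of the members on which the results turn, 5′ to 3′ as DNA, with the stem in capitals.

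Hist1h1e (H1), chr13:23621777-23621802, minus strand: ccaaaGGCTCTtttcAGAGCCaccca
Hist1h2ao (H2A), chr13:21810893-21810918, plus strand: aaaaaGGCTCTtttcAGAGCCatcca
Hist3h2a (H2A), chr11:58955167-58955192, plus strand: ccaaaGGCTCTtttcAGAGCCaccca
Hist1h2bg (H2B), chr13:23571838-23571863, plus strand: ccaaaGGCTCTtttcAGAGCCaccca
Hist2h3c2 (H3), chr3:96238480-96238505, minus strand: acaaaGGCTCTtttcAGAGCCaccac
Hist1h4i (H4), chr13:22040961-22040986, minus strand: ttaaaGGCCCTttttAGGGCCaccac
Hist4h4 (H4), chr6:136803993-136804018, minus strand: acaaaGGCCCTtttcAGGGCCcacaa

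All the H1, H2A, H2B and H3 stems found began with GGCTCT, while the 11 found among H4 members began with GGCCCT in 9 and GGTCCT in the other 2. The members differed much more in how far the annotation runs on past the stem-loop. It runs 31 bases further in Hist1h2ao and 330 in Hist1h4i. It runs 1153 bases further in Hist1h1e, 1643 in Hist3h2a and 2445 in Hist4h4, the last of which has a transcript of 2863 bases.

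Many members are near copies, and this limits what a value for a single symbol means. For 30 of the 68, at least 50% of the 50-base words of their transcripts also occur in another member. Hist1h2ao and Hist1h2ap share 93.5% of the words of Hist1h2ao. Hist1h2bq and Hist1h2br had identical values in every library, with 29 libraries above 0. Hist2h3b and Hist2h3c2, which code for H3, were above FPKM 1 together in 43 libraries, of 46 and 45. The division of reads within such groups is uncertain. The results lead with counts of members and with classes, but counts of members keep this limit. Reads divided between near copies can count as more than 1 member, and Hist1h2bq and Hist1h2br always counted together. By contrast, Hist4h4 and Hist2h2be shared no 50-base word with another member, and Hist3h2a shared 2.02%.

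Promoters from the RefSeq table (GRCm38.p6), 250 bases before to 50 after the start, were matched for 61 of the 68 members. The 3 motifs were searched on both strands and anywhere in that stretch, so a match does not give a position or show a working element. CCAAT was in 49 of 49 promoters of H1, H2A, H2B and H3 members but in 3 of 12 H4 promoters. It was in 37.8% of the promoters of 26964 other genes. TATAAA was in 57.4% of member promoters and 14.1% of the others. The octamer ATTTGCAT was in 7 of 17 H2A and 6 of 16 H2B promoters and in none of the 28 H1, H3 and H4 promoters, against 1.71% of other genes. The stretches show an H1, an H2B and 2 H4 members that differed in where they were detected, 150 bases up to the start, with the 3 motifs in capitals.

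Hist1h1e, chr13:23622559-23622708, minus strand: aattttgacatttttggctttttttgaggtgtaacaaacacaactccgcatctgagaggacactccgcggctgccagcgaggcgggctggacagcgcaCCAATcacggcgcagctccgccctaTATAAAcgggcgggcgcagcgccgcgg
Hist1h2bg, chr13:23571250-23571399, plus strand: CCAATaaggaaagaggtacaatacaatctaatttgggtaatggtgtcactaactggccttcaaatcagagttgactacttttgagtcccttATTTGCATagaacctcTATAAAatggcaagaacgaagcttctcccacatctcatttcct
Hist1h4i, chr13:22041363-22041512, minus strand: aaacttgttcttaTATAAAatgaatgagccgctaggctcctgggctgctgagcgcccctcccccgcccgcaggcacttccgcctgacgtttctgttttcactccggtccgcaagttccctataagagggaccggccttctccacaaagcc
Hist4h4, chr6:136804432-136804581, minus strand: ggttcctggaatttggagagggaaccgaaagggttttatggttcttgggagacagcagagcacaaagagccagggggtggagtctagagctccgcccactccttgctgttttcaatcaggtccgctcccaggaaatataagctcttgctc

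Histone transcripts were detected unevenly between cells. Of the 68 members, 63 were detected in at least 1 kept cell, Hist2h2ab was detected only in wells, and Hist1h1t, Hist1h2aa, Hist2h3c1 and Hist3h2bb-ps were at 0 in every library. The median cell held 2 members in WT CD8 and 1 in each of the other plates, whereas the highest cell held 39, 42, 26 and 32 in the 4 plates. Values for the 4 plates are given in one order, with CD8 before CD4 and, within each, WT before KO-labelled. At least 5 members were found in 31 of 72 WT CD8 cells, 43.1% (exact 95% interval 31.4 to 55.3). In KO-labelled CD8 the share was 7.50% (2.80 to 15.6), in WT CD4 6.33% (2.09 to 14.2) and in KO-labelled CD4 5.48% (1.51 to 13.4). These intervals, here and below unless named otherwise, are Clopper-Pearson bounds and cover counting error between cells only. The limit given below with a count of 0 is 3 over the number of cells, a simpler rule and not such a bound. The WT CD8 plate stood above the other 3, whose intervals overlapped one another.

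Most of the summed histone signal came from those few cells. The cells with at least 5 members carried 97.4% of the summed member FPKM of the WT CD8 plate. In the other plates they carried 64.01%, 73.02% and 64.4%. A single H2A symbol, Hist1h2ao, made up 63.6%, 31.4%, 56.1% and 33.9% of the sum in the 4 plates. It had near copies and a transcript of 480 bases, and its lowest value above 0 was 16.8 FPKM, against 0.26 for the longer Hist4h4, so its level may not be compared with those of other members as numbers of molecules.

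Histone members were next set against Mcm5 and Top2a. Mcm5 codes for a subunit of the replicative helicase that is made from late G1 into S phase, and Top2a for the topoisomerase that untangles DNA in S, G2 and mitosis. Mcm5 was detected in 55.6%, 17.5%, 11.4% and 17.8% of cells in the plate order above, and Top2a in 48.6%, 10%, 16.5% and 13.7%. Both were present in 30 of 72 cells of the WT CD8 plate, and in 5 cells of each other plate. Cells with both held a median of 17, 19, 18 and 23 members in the 4 plates. Cells with neither, of which there were 27, 63, 62 and 55, held a median of 1, 1, 0 and 0.

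**Figure D1:**
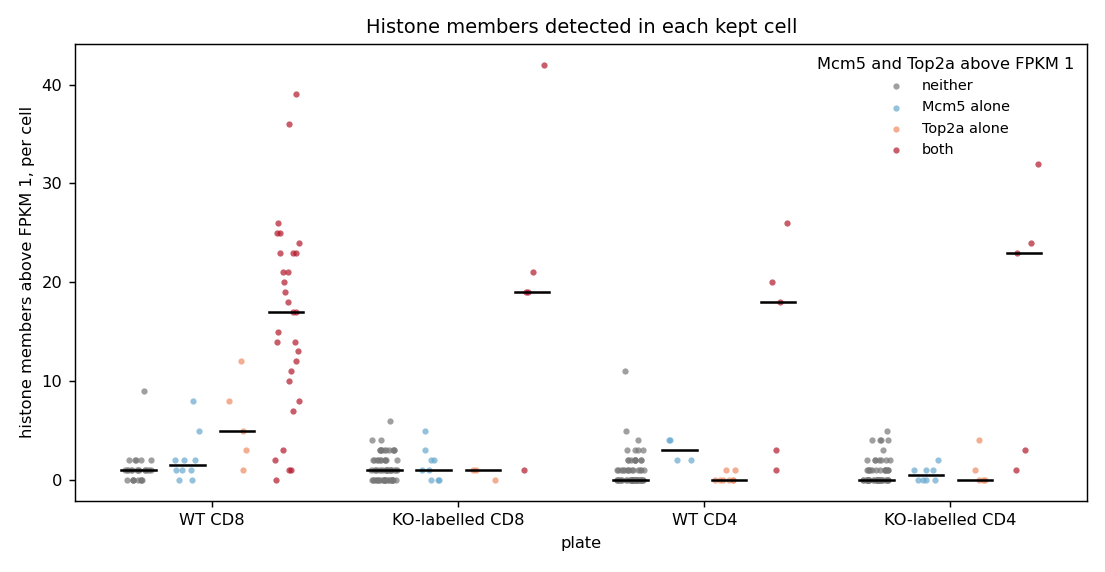
Number of the 68 histone members above FPKM 1 in each kept cell, by plate and by whether Mcm5 and Top2a were above FPKM 1; 1 point is 1 cell and the line is the median. Cells with both genes had medians of 17 to 23 members in the 4 plates, and cells with neither had medians of 0 or 1.

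The 2 groups overlapped at the low end. In WT CD8 the cells with both genes ran from 0 to 39 members and those with neither from 0 to 9. In KO-labelled CD8 the 5 cells with both held 1, 19, 19, 21 and 42 members, and the 63 with neither held at most 6. In WT CD4 the 5 cells held 1, 3, 18, 20 and 26, against at most 11 with neither. In KO-labelled CD4 they held 1, 3, 23, 24 and 32, against at most 5. The summed histone FPKM had medians of 3281, 2484, 4033 and 1826 in cells with both genes, and of 5.17, 4.54, 0.96 and 0.69 in cells with neither.

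Cells with only 1 of the 2 genes were mostly low. Cells with Mcm5 alone numbered 10, 9, 4 and 8 and held a median of 1.5, 1, 3 and 0.5 members. Cells with Top2a alone numbered 5, 3, 8 and 5 and held 5, 1, 0 and 0. The WT CD8 plate had 3 of 5 cells with Top2a alone at 5 or more members, and none of the 16 such cells of the other plates reached 5.

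No cell with both genes held 4 to 6 members. Of these 45 cells, 35 held 7 or more and 10 held 0 to 3. Mki67, a marker of cycling cells, was detected in 33 of the 35 and in 3 of the 10. The 10 cells had 2714 to 5041 genes, and the 35 had 2330 to 7014. In the 10 cells between 4 and 18 of 20 S phase genes and between 0 and 19 of 20 G2 and mitosis genes were detected. The ranges in the 35 were 5 to 20 and 3 to 20. The medians were 12 S phase genes and 3 G2 and mitosis genes in the 10 cells, against 17 and 18 in the 35. The 19 belonged to 1 WT CD4 cell, and the low cells of the other 3 plates had at most 5 G2 and mitosis genes.

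Taking each gene alone gave the same direction in every plate. At least 5 members were found in 67.5% of WT CD8 cells with Mcm5 and 12.5% of those without, a difference of 55 percentage points (Newcombe 95% interval 33.04 to 69.5). For Top2a the shares were 80% and 8.11%, a difference of 71.9 points (51.2 to 83.2). In KO-labelled CD8 the differences were 34.2 points (13.7 to 59.8) for Mcm5 and 47.2 (17.9 to 75.8) for Top2a. In WT CD4 they were 30.5 points (8.09 to 61.8) and 20.05 (3.43 to 47.3). In KO-labelled CD4 they were 21.4 points (4.87 to 48.6) and 28.4 (8.0 to 58.8). With detection taken as above FPKM 0, the KO-labelled CD4 value for Mcm5 was 12.1 points (-1.46 to 34.03). With cells of at least 2000 genes, the WT CD4 value for Top2a was 18.1 points (-3.95 to 46.8).

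Over all 68 members, the share of cells with the member was higher with Mcm5 for 59, 51, 38 and 44 members in the plate order above. It was lower for 2, 3, 4 and 5 members, and the rest were equal. With Top2a it was higher for 60, 51, 35 and 45 members and lower for 1, 3, 7 and 4. Genes in general were also higher in these cells. Over all genes detected in at least 5% of cells on average over plates, the median difference with Mcm5 was 19.4, 8.23, 15.1 and 9.62 points. With Top2a it was 21.2, 11.1, 11.2 and 11.4 points. The same count over all gene rows was not made, so the counts of members are a description only.

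Detection of any gene rises with cells that yield more genes, and the cells with both genes did. Their median was 4587, 4516, 3856 and 4844 genes, against 2389, 2392, 1918 and 2074 in cells with neither. Among the 23 members detected in at least 5% of cells on average over plates, the share was at least 20 points higher with Mcm5 for 20 in WT CD8, where 49.3% of all 9445 genes were. The counts were 8 in KO-labelled CD8 (21.3% of all genes), 16 in WT CD4 (39.7%) and 9 in KO-labelled CD4 (23.7%). For Top2a they were 21 in WT CD8 (54.5%), 16 in KO-labelled CD8 (30.6%), 4 in WT CD4 (29%) and 17 in KO-labelled CD4 (30.6%). The 4 of 23 with Top2a in WT CD4 was a smaller share than that of all genes. The 23 had passed a filter partly through the cells with high values, so these counts describe them and support nothing.

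**Figure D2:**
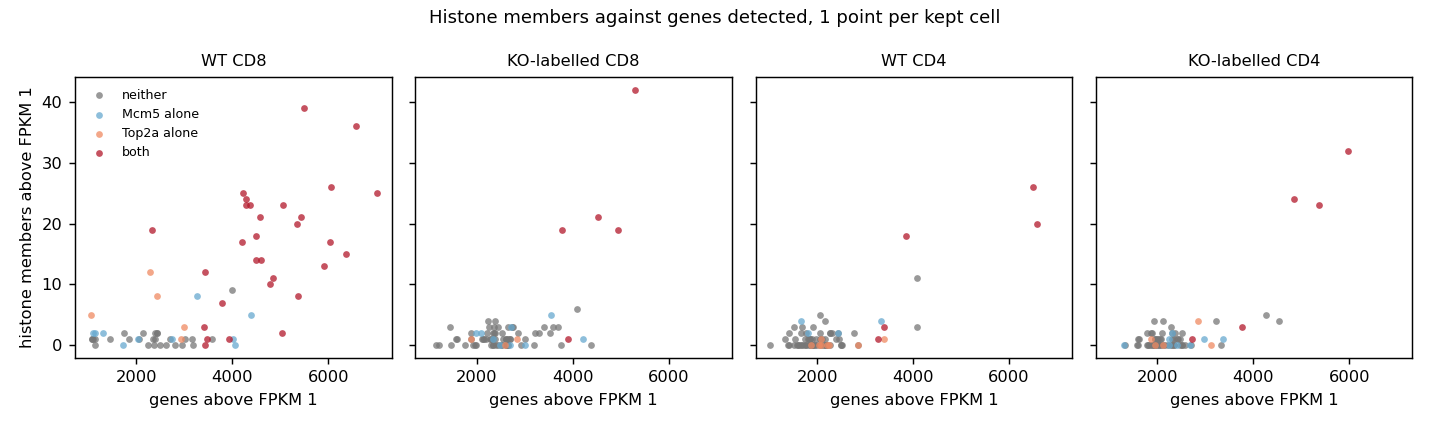
Histone members above FPKM 1 (vertical axis) against all genes above FPKM 1 (horizontal axis) in each kept cell, 1 panel per plate, coloured by detection of Mcm5 and Top2a. Most cells above 4000 genes with both genes lie at 8 to 42 members, while the 10 cells above 4000 genes without both lie at 0 to 11. Those 10 cells had 4020 to 4543 genes, and cells with both had up to 7014.

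Among cells with at least 4000 genes, those with both genes held more members. This range had no upper limit, so gene number was not held equal in it. Cells with both had at least 4516 genes in KO-labelled CD8, 6489 in WT CD4 and 4844 in KO-labelled CD4. The others of these plates had at most 4378, 4090 and 4543. In WT CD8 the others had 4020 to 4379 genes, and cells with both had up to 7014. In WT CD8 the 23 with both had a median of 20 members (range 2 to 39), and the 3 others had 1 (0 to 5). In KO-labelled CD8 there were 3 with a median of 21 and 3 others with 1. In WT CD4 there were 2 with a median of 23 and 2 others with 7, and in KO-labelled CD4 3 with 24 and 2 others with 4.5. Between 3000 and 4000 genes the contrast was small in WT CD8, with medians of 2 in 6 cells with both and 1 in 6 others. When cells with and without the gene were paired on genes detected to within 10%, the difference for Mcm5 fell from 55 to 10 points in WT CD8, with 10 pairs, and from 30.5 to 0 points in WT CD4, with 5 pairs. The difference for Top2a fell to 35.7 points in WT CD8, with 14 pairs, to 16.7 in KO-labelled CD8, with 6, and to 0 in WT CD4, with 9. The other 3 values stayed within their first intervals, at 16.7 points for Mcm5 in KO-labelled CD8, with 12 pairs, and 10 for Mcm5 and 14.3 for Top2a in KO-labelled CD4, with 10 and 7 pairs. The Newcombe intervals of all 8 matched differences held 0. They treat cells with and without the gene as independent groups and so leave out the pairing. The part of the number of genes in the relation was not tested further.

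The 5 classes were compared as shares of cells with any member and then by their leading members. H4 and H2A members were found in the most cells of each plate, level with each other in WT CD4. H3 members were found in the fewest, level with H1 in WT CD8. A cell with all 5 classes was found only among cells with both Mcm5 and Top2a, in 20 WT CD8 cells and 3 cells of each other plate. Classes of different size are not compared by these shares without that limit, because a class with more members has more chances.

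**Figure D3:**
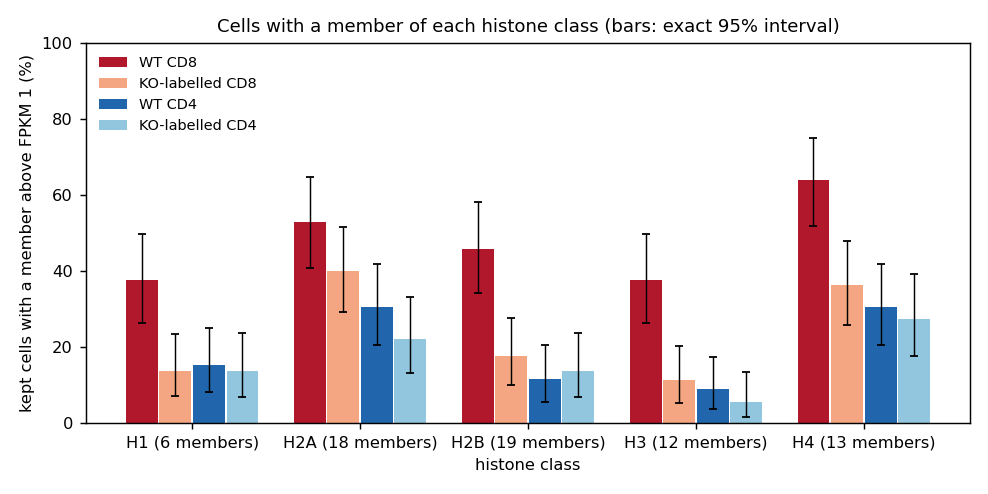
Percent of kept cells with at least 1 member of a histone class above FPKM 1, by class and plate, with exact 95% intervals as error bars. WT CD8 had the highest share in all 5 classes, from 37.5% for H1 and H3 to 63.9% for H4.

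Linker histone H1 binds where DNA enters and leaves the nucleosome. Cells with an H1 member made up 37.5% (26.4 to 49.7), 13.8% (7.07 to 23.3), 15.2% (8.10 to 25.03) and 13.7% (6.77 to 23.75) of the plates. Hist1h1e led this class on the mean over plates, at 30.6%, 5.00%, 10.1% and 10.96%. In KO-labelled CD8 Hist1h1c was higher, at 8.75%. In WT CD8 Hist1h1e was found in 20 of 30 cells with Mcm5 and Top2a. It was in 0 of 27 with neither, which allows a share of up to 11.1%. In the other 3 plates it was detected in 3 of 5 cells with both, and in 1 of 63, 4 of 62 and 4 of 55 cells with neither. Its FPKM in WT CD8 cells with both ran from 0 to 126.8 with a median of 19.5.

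Hist1h1c, another H1 gene, did not share this pattern in every plate. In WT CD8 it was found in 10 of 30 cells with both genes, in 0 of 5 in KO-labelled CD8, which at 5 cells sets a limit of 60%, and in 3 of 5 in each CD4 plate. Its highest single-cell value, 711 FPKM, was in a KO-labelled CD8 cell with neither gene. Its wells held 19.9, 40.3, 64.7 and 2.63 FPKM, and the KO-labelled CD4 well was the low one.

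H2A and H2B form the dimers that flank the centre of the nucleosome. A member of H2A was detected in 52.8%, 40%, 30.4% and 21.9% of cells. Hist1h2ao was detected in 44.4% (32 of 72), 18.8%, 16.5% and 8.22% of cells. In cells with both Mcm5 and Top2a it was found in 25 of 30, 4 of 5, 4 of 5 and 4 of 5, with median FPKM of 2013, 1131, 3051 and 204.1. In cells with neither it was found in 3 of 27, 10 of 63, 7 of 62 and 2 of 55, and its highest value there was 254.7 FPKM. The cells with both genes thus reached values, up to 8329 FPKM in WT CD8, that no cell with neither reached. The wells held 723, 190.01, 286.5 and 278.5 FPKM, and WT CD8 was the highest.

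Its near copy Hist1h2ap was detected in 27.8%, 7.50%, 5.06% and 8.22% of cells. Hist2h2aa1, an H2A gene on chromosome 3, had 15.3% and 13.8% of CD8 cells and 5.06% and 5.48% of CD4 cells. Its wells were the most even of those named, at 41.4, 41.2, 60.5 and 52.2 FPKM. In all, 43.3% of its 30 detections in kept cells were in cells with both Mcm5 and Top2a, which is lower than for most members.

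A member of H2B was detected in 45.8%, 17.5%, 11.4% and 13.7% of cells. Hist1h2bg had the highest mean share over plates, at 29.2%, 5.00%, 6.33% and 5.48%. In KO-labelled CD8 Hist1h2bc, with 7.50%, and Hist2h2be, with 6.25%, were higher. Hist1h2bg was found in 19 of 30, 4 of 5, 3 of 5 and 2 of 5 cells with both genes. With neither it was in 1 of 27, 0 of 63, 2 of 62 and 2 of 55. The 0 of 63 allows up to 4.76%. Hist1h2bc, which codes for H2B and had no stem-loop in its annotated transcript of 1156 bases, was detected in 12.5%, 7.50%, 2.53% and 5.48% of cells. Its wells ran from 6.11 FPKM in WT CD8 to 75.1 in WT CD4, with 48.3 and 19.2 in the KO-labelled CD8 and CD4 wells.

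H3 and H4 form the tetramer at the centre of the nucleosome. A member of H3 was detected in 37.5%, 11.3%, 8.86% and 5.48% of cells in the plate order above. Over the 4 plates, 34 of 45 cells with Mcm5 and Top2a had an H3 member and 7 of the cells with neither did, the smallest such count among the 5 classes. For H1 the counts were 32 and 19, for H2A 37 and 58, for H2B 35 and 19, and for H4 41 and 62. These counts pool plates, and WT CD8 supplied 30 of the 45 cells.

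Hist2h3b led the H3 class, with 34.7%, 11.3%, 7.59% and 5.48% of cells, and its partner Hist2h3c2 had 34.7%, 8.75%, 6.33% and 5.48%. Hist2h3b was found in 21 of 30, 4 of 5, 4 of 5 and 3 of 5 cells with both genes. It was found in 1 of 27, 4 of 63, 2 of 62 and 0 of 55 with neither, the last allowing up to 5.45%. Its median FPKM in cells with both was 64.9, 59.1, 8.08 and 18.5. The highest value in cells with neither was 287.1 FPKM, in 1 WT CD8 cell, so the groups overlapped there.

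A member of H4 was detected in 63.9%, 36.3%, 30.4% and 27.4% of cells, but 2 patterns were mixed in that class. Hist1h4i was found in 15 of 30, 3 of 5, 2 of 5 and 4 of 5 cells with both genes and in 0 of 27, 3 of 63, 2 of 62 and 2 of 55 with neither. The 0 of 27 allows up to 11.1%. Its share over all kept cells was 23.6%, 8.75%, 6.33% and 8.22%, and its wells held 102.6, 2.79, 14.2 and 15.3 FPKM.

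Hist4h4 was the most widely detected of all members on the mean over plates, at 36.1%, 26.3%, 22.8% and 15.1% of cells. In WT CD8 alone Hist1h2ao was in more cells, 44.4%. The cells with Hist4h4 had medians of 3.52, 3.64, 3.565 and 4.64 FPKM for it, not far above the level of detection. In cells with both it was in 9 of 30, 3 of 5, 2 of 5 and 1 of 5, and in cells with neither it was in 13 of 27, 16 of 63, 13 of 62 and 8 of 55. The WT CD8 shares of 30% and 48.1% were not tested against each other. Its highest FPKM was 8.77 in WT CD8 cells with both genes and 20.1 in those with neither. In WT CD4 a cell with neither had 108.2 FPKM, and the highest value in any kept cell was 389 FPKM, in a KO-labelled CD8 cell with Top2a alone. The wells held 0.82, 0, 1.38 and 1.44 FPKM.

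Hist3h2a, an H2A gene on chromosome 11, was also widely detected, at 16.7%, 11.3%, 11.4% and 9.59%. It was in 7 of 30, 1 of 5, 2 of 5 and 1 of 5 cells with both genes and in 2 of 27, 8 of 63, 7 of 62 and 5 of 55 with neither. Its share was thus larger in cells with both genes in all 4 plates, at 23.3%, 20%, 40% and 20% against 7.41%, 12.7%, 11.3% and 9.09%. The cells with neither reached 371.1, 345.5, 284.8 and 454.5 FPKM in the 4 plates, and those with both reached 73.2, 12.6, 172.9 and 1.23. In all plates but WT CD8 these maxima compare 5 cells with both against 55 to 63 with neither. The larger group has more chances of a high value.

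Across the 43 members detected in at least 10 kept cells, a median of 78.05% of the detections fell in cells with both Mcm5 and Top2a. These were 14.8% of the kept cells, but they also yielded more genes of any kind. The same share over all genes was not computed. The counts pool plates, and WT CD8 supplied 30 of the 45 cells with both. Members reached 10 cells largely through those same cells, so the median describes them and supports nothing. The share of detections in cells with both was below 40% in 3 members. These were Hist4h4 with 19.7% of 76 detections, Hist3h2a with 29.7% of 37, and the H2B gene Hist2h2be with 30% of 10. Hist2h2be was chosen for mention after its values were seen. Without these 3 members, a setting added after the data were seen, cells with at least 1 member fell from 84.7% to 63.9% in WT CD8, from 67.5% to 51.2% in KO-labelled CD8, from 51.9% to 35.4% in WT CD4 and from 50.7% to 35.6% in KO-labelled CD4. In H4, the count of cells with neither gene that had a member was 62 with Hist4h4 and 15 without it.

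**Figure D4:**
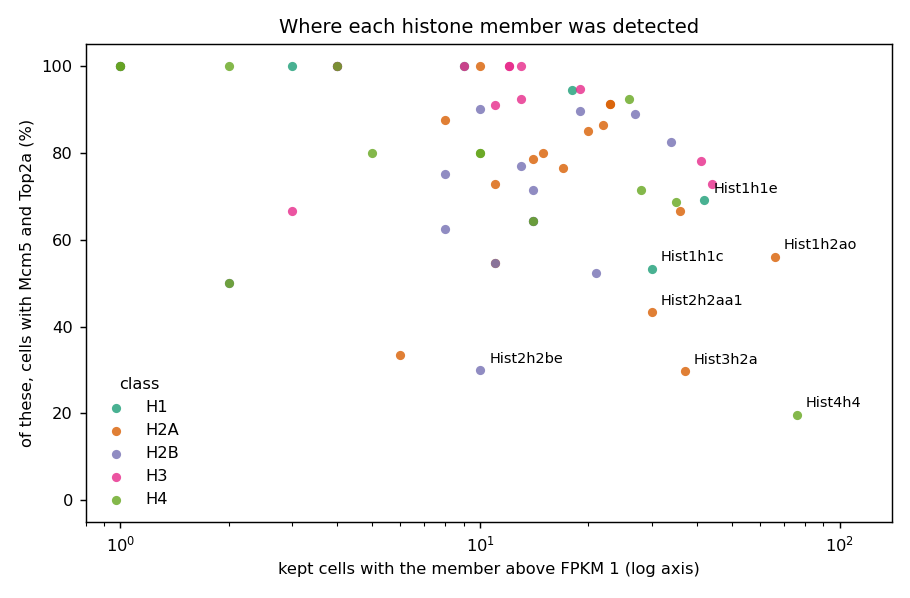
For each of the 63 members detected in kept cells, the number of cells with the member (horizontal log axis) and the percent of these that had both Mcm5 and Top2a (vertical axis), coloured by histone class. Hist4h4, Hist3h2a and Hist2h2be lie at 19.7% to 30%, below the other members with 10 or more cells.

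The annotated transcript ends were set beside these shares. In 22 members the annotation ended at most 100 bases past the stem-loop, and 74.7% of their detections fell in cells with both genes. In 13 members with over 100 and up to 1000 bases past it the figure was 77.3%. In 9 members with over 1000 bases past it, among them Hist4h4 and Hist3h2a, it was 46.1%. Hist4h4 supplied 76 of the detections of this last group and Hist3h2a 37, and without them the other 7 members had 74.7%. Hist1h1e, with 1153 bases, had 69.05% of its 42 in cells with both. Without a stem-loop found, it was 79.3% in 18 members with transcripts of at most 600 bases and 65% in 6 with longer ones. The median over members was 90.5%, 80% and 70.2% in the 3 groups with a stem-loop, and 76.9% and 64.3% in the 2 without. Such ends are annotation, not measurements of the RNA in these cells, and the groups were drawn after the values were seen.

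Plates of the 2 genotypes were then compared within each lineage. In CD8 cells 59 of the 68 members were found in a smaller share of KO-labelled than of WT cells, 4 in a larger share, and 5 were at 0 in both. Over all gene rows 47.2% had a smaller share and 14.03% a larger one. In CD4 cells 16 members had a smaller share in the KO-labelled plate, 38 a larger one and 14 were equal, against 22.9% smaller and 33.4% larger over all rows. Most of the CD4 shares rested on under 6 cells.

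On the scale of mean log2(FPKM + 1), which understates the change of low genes, 23 members passed the filter of a mean share of at least 5% over plates, as did 9446 genes in all. In CD8 cells 10 of the 23 were lower by at least 1 in the KO-labelled plate and 0 higher by that much. The background over all genes was 13.7% lower and 2.15% higher. The median difference was -0.97 for the 23 and -0.31 for all genes. Of the 23, 10 passed the filter only through their share in WT CD8, the plate with the high values, so the count and median describe them and support nothing. Over all 68 members, with no filter, the median was -0.21, with 0 for all genes. Over the 13 that passed on the mean share of the other 3 plates, a setting added after the data were seen, it was -0.97, with -0.30 for all genes, and 6 were lower by at least 1. Hist1h2ao differed by -3.02, Hist2h3b by -1.91 and Hist2h3c2 by -1.71, and at the other end Hist1h1c differed by 0.08, Hist1h2bc by -0.05 and Hist2h2aa1 by -0.07.

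In CD4 cells 0 of the 23 differed by at least 1 in either direction, where 0.752% of all genes were lower by that much and 4.38% higher. The median difference was 0.04 for the members and 0.06 for all genes. Hist1h2ao differed by -0.61, and Hist3h2a and Hist4h4 by -0.18 each, while Hist1h2bc differed by 0.26, Hist1h1e by 0.19 and Hist1h2bk, an H2B gene, by 0.16.

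**Figure D5:**
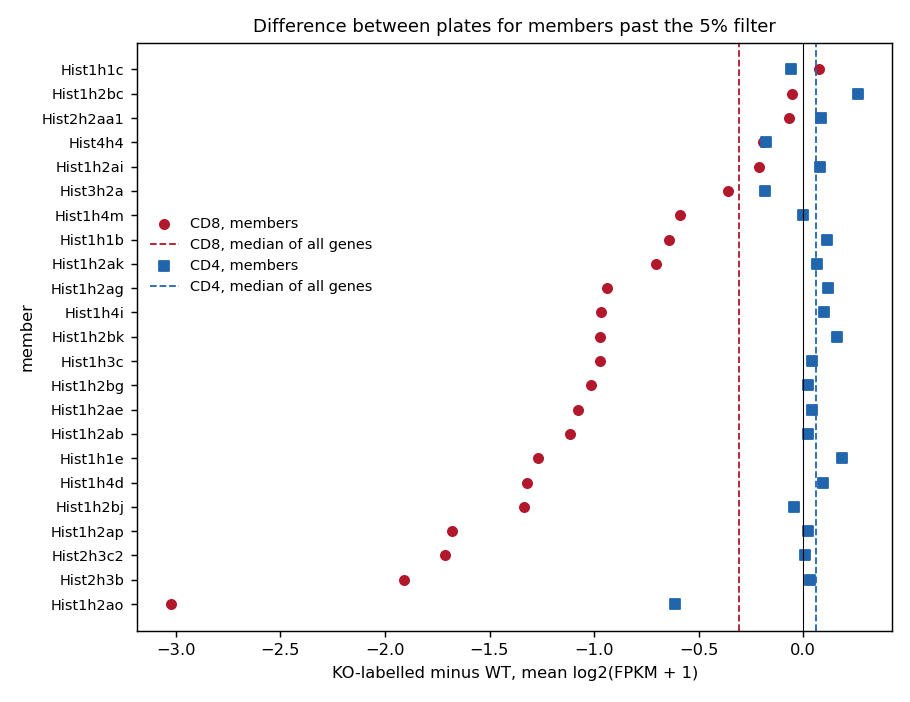
KO-labelled minus WT difference in mean log2(FPKM + 1) for the 23 members past the 5% filter, in CD8 (circles) and CD4 cells (squares), with the median of all 9446 genes as dashed lines. CD8 differences run from -3.02 for Hist1h2ao to 0.08 for Hist1h1c, and CD4 differences from -0.61 to 0.26.

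The CD8 difference went with the number of cells that held Mcm5 and Top2a. Those made up 41.7% of the WT CD8 plate and 6.25% of the KO-labelled one, a difference of -35.4 points, and cells with at least 5 members differed by -35.6 points. In CD4 the corresponding differences were 0.52 and -0.85 points. These set 1 plate against 1 plate, with no interval for the difference between genotypes. In CD8 cells with neither gene the median difference was 0.21, where all genes had 0.17, over 4 members that passed the filter there. In CD8 cells with Mcm5 or Top2a it was -0.28 over 46 members, where all genes had -0.33. Within cells with both genes, the KO-labelled CD8 plate had 5 cells and a median of 19 members, and the WT plate 30 cells and 17.

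The number of genes per cell also moved with it. When WT and KO-labelled CD8 cells were paired on genes detected to within 10%, 45 pairs remained with medians of 2747 and 2752 genes. At least 5 members were then found in 24.4% (12.9 to 39.5) of WT and 13.3% (5.05 to 26.8) of KO-labelled cells. The median member difference fell in size to -0.13 over 13 members, with 0.02 for all genes. Without cells above 4000 genes it was -0.22 over 9 members, with 0.10 for all genes. The parts of cell-cycle state, gene number and genotype in the CD8 difference cannot be told apart here.

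Genes of the melanoma were looked for in the same cells, since B16F10 cells divide. At least 2 of 6 melanoma genes were found in 10 of 30 cells with Mcm5 and Top2a in WT CD8, and in 5 of 27 with neither. Tyr, one of the 6, was above FPKM 1 in 97.5% to 100% of kept cells of every plate and the other 5 in 0% to 15.3%, so a cell with Tyr needed only 1 of the other 5 to count. The counts were 0 of 5 and 6 of 63 in KO-labelled CD8, 0 of 5 and 5 of 62 in WT CD4, and 1 of 5 and 7 of 55 in KO-labelled CD4. The summed FPKM of the 6 genes ran from 3.3 to 270 with a median of 10.5 in WT CD8 cells with both, and had a median of 12.4 with neither. Tyr alone had medians of 9.06 and 9.2 FPKM in these cells, and the other 5 summed had a median of 0 in both. All 30 of those WT CD8 cells had at least 2 of 4 T cell genes and both CD8 chains. Without the cells that had at least 2 melanoma genes, the CD8 median member difference was -0.73, with -0.19 for all genes, and the CD4 value was -0.02.

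In the cells with both genes, 3 of 30 in WT CD8 had at least 2 of 4 dendritic cell genes, and none in any plate had at least 2 macrophage, B cell, NK, erythroid, or fibroblast and endothelial genes. Among all cells with at least 5 members, 1 of 4 in KO-labelled CD4 had at least 2 of 4 macrophage and monocyte genes, and it lacked Mcm5 and Top2a.

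The wells gave a second view of each plate, in which the histone signal was present in all 4. They held 31, 24, 40 and 30 members above FPKM 1 and a summed 1375, 500.5, 963 and 624 FPKM. H2A made up 71.4%, 56.3%, 54.95% and 65.5% of the sums and Hist1h2ao alone 52.5%, 37.96%, 29.7% and 44.6%. Of the 48 members with a mean of at least 1 FPKM over wells, 21 were lower and 7 higher by at least 1 on the log2(FPKM + 1) scale in the KO-labelled CD8 well. Over all 11693 genes 14.6% were lower and 16.6% higher. In CD4, 19 were lower and 8 higher, where 14.4% and 17.8% of all genes were. The median differences of -0.13 and -0.17 were small beside the spread, with all genes at 0.01 and 0. The filter used the mean of the same 4 wells, so a member high in 1 well alone could pass and then count as lower or higher. The counts and medians of the 48 therefore describe them and support nothing.

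A well is 1 library, and a member at 0 there may have been missed, so these differences compare single libraries with no replicate. Marker genes of other cell types were also read in the wells. The 4 macrophage and monocyte genes summed to 1815, 881, 41.6 and 3323 FPKM, and the 2 erythroid genes to 4254 FPKM in the WT CD8 well and at most 4.5 in the others. The 6 melanoma genes summed to 59.6, 15.6, 153.05 and 47.97 FPKM. Whether RNA of other cell types added to the histone sums was not tested.

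Genes that make or handle histone mRNA and protein were followed in the same cells. Of 26 such genes, 23 were detected in a larger share of cells with both Mcm5 and Top2a than with neither in all 4 plates. That was true of 39.7% of the 68 members and of 23.1% of the other 23350 rows, both without a filter. Among genes that passed the 5% filter, it was true of 20 of the 23 members and of 56.8% of the other 9421 genes. The 23 had passed that filter partly through the cells with high values, so their count describes them and supports nothing. Slbp, which codes for the stem-loop binding protein, was found in 28 of 30, 4 of 5, 4 of 5 and 5 of 5 cells with both genes, and in 9 of 27, 25 of 63, 17 of 62 and 16 of 55 with neither. Nap1l1, which codes for a histone chaperone, was found nearly everywhere, in 100% of cells with both and a mean of 83.8% with neither. Rbbp4 and Rbbp7, which code for histone-binding chaperones, had 93.3% and 98.3% with both and 43.6% and 36.9% with neither.

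A list of 11 other histone genes, outside the clusters, was followed as well. Those for replacement histones have poly(A) tails, while H2afx and Cenpa, also listed, are known to vary with the cell cycle. The shares of these genes differed widely, with a mean over plates from 93.4% of kept cells for H3f3b to 0.35% for H2afy2, and H1fx was at 0 in every cell and well. H3f3b, for the H3.3 protein, was found in a mean of 100% of cells with both genes and 90.8% of those with neither, and H3f3a and H2afz in 100% with both and in 79.8% and 69.01% with neither. Of the 11 genes, 7 had larger shares with both in all 4 plates. That was true of 56.8% of the other genes past the 5% filter and of 23.1% of the other rows without a filter. H1f0, the replacement linker histone, was found in a mean of 40% and 8.97%. All 20 S phase genes and all 20 G2 and mitosis genes had larger shares with both in all 4 plates. Their median shares were 83.3% and 67.5% in cells with both and 10.3% and 2.55% with neither. The cells had been chosen by Mcm5 and Top2a, which are cell-cycle genes themselves, so these counts describe the cells and support nothing.

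Other genes were ranked by how closely their values followed the summed histone signal. Over the 72 to 80 kept cells of each plate, Pearson r between log2(FPKM + 1) of a gene and log2 of the summed histone FPKM + 1 was averaged over plates. The 10 highest that were no member were Cdca8 (0.55), 2810417H13Rik and Ccna2 (0.52 each), Aurkb, Cdca5 and Fbxo5 (0.51 each), Birc5, Cdca3 and Esco2 (0.50 each) and Tpx2 (0.49). Mki67 was at rank 21 with 0.47, Top2a at 39 with 0.44 and Mcm5 at 50 with 0.43. The points share library and depth, and the summed histone signal had r of 0.60, 0.31, 0.48 and 0.50 with the number of genes detected. Among members that passed the filter, r with the sum they belong to ran from 0.66 for Hist1h2ao to 0.15 for Hist4h4.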

How the data were processed

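The authors deposited FPKM per gene, and the name of the deposited table gives TMM as the normalization between libraries. The submitters' processing notes name RSEM, Bowtie and mm10, and the annotation used is not given in the sources used here. All 380 columns matched a label, with 0 left over. The members and gene lists were chosen with earlier results of these data known. Detection was FPKM above 1, and cells needed 1000 genes above it. Differences are of mean log2(FPKM + 1). Numbers of reads were not used, so precision is given by cells and genes detected. Genes named were the 10 members with the highest mean share, the highest of each class, the 5 highest in wells, the 3 highest and 3 lowest differences per lineage, their near copies, and the leading genes of each list. RSEM divides reads between near-identical transcripts, which can move signal among members, and FPKM of short transcripts is coarse. The difference, interval and pairing steps were tested on simulated data. Alternatives changed the detection level, cell and gene filters, pseudocount and matching. Python 3.11.15, pandas 2.3.3, numpy 2.4.6 and scipy 1.17.1 were used.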

Additional observations from a re-analysis of the deposited data

Results flagged for a closer look

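Of the 72 cells left out for having under 1000 genes, 20.8% had at least 1 histone member above FPKM 1, and 0 had at least 5. These cells enter no comparison, and a signal in them above the limit that a count of 0 allows is why they are listed.

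The median KO-labelled minus WT difference of the members past the 5% filter was -0.97 in CD8 cells and 0.040 in CD4 cells, opposite in sign. All genes past the filter had -0.31 and 0.06. The CD4 value was negative under 5 alternatives, at -0.020, -0.059, -0.086, -0.20 and -0.39, and the CD8 value was -0.21 with no filter, since 10 of the 23 members passed it only through WT CD8. Each is 1 plate minus 1 plate, and the difference between lineages was not tested. The CD8 plates also differed in cells with both Mcm5 and Top2a, 30 of 72 against 5 of 80, while the CD4 plates had 5 of 79 and 5 of 73. The WT CD4 titles carry p2 and the others p1.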

How the results depend on the processing

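No paired analysis was possible because each group is 1 plate and the labels give cells no number shared between plates. Of the recomputed values that answer a comparison, 29 moved outside the interval of the reported value, 6 changed sign and the others stayed within it. Detection above FPKM 0 and the filter of 2000 genes moved none outside it, but the KO-labelled CD4 Mcm5 difference was 12.1 points (-1.46 to 34.03) under the first and the WT CD4 Top2a difference 18.1 points (-3.95 to 46.8) under the second. With detection above FPKM 10, cells with at least 1 member fell to 69.4% in WT CD8, 48.8% in KO-labelled CD8 and 36.99% in KO-labelled CD4, and the KO-labelled CD8 median to 0 members. With all cells kept, the WT CD8 share was 69.1%. Without cells above 4000 genes, cells with at least 5 members fell to 17.4% in WT CD8, 2.70% in KO-labelled CD8 and 0% in KO-labelled CD4. The WT CD8 differences were then 16.1 points for Mcm5 and 44.1 for Top2a, both KO-labelled CD4 differences were 0 points, those in KO-labelled CD8 20 for Mcm5 and 18.6 for Top2a and those in WT CD4 12.8 and 7.53, and the median member differences were -0.22 in CD8 and -0.086 in CD4. With genotypes matched on genes detected, WT CD8 had 24.4% of cells with at least 5 members, and the medians were -0.13 in CD8 and -0.059 in CD4. In cells with neither Mcm5 nor Top2a they were 0.21 and -0.20, and in CD8 cells with either -0.28. The CD8 median was -1.49 and -0.48 with pseudocounts 0.1 and 10, -0.21 with no filter and -1.61 over 2 members with a filter of 20%, where the CD4 median was -0.39. With cells matched on genes detected, the Mcm5 difference was 10 points in WT CD8 and 0 in WT CD4. That for Top2a was 35.7 in WT CD8, 16.7 in KO-labelled CD8 and 0 in WT CD4. In the alternatives added after the data were seen, the CD4 median was -0.020 without cells with melanoma genes, and without Hist4h4, Hist3h2a and Hist2h2be the cells with at least 1 member were 63.9%, 51.2%, 35.4% and 35.6% in plate order. Fewer members and cells entered several of these settings, and the cause of a change was not tested. The number of cells with both genes, 5 in each of 3 plates, limits every value there.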

Other observations

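The Hist1 members on chromosome 13 supplied 92.5% of the summed member FPKM of kept cells in WT CD8, 84.1% in KO-labelled CD8, 82.4% in WT CD4 and 82.3% in KO-labelled CD4. The 10 Hist2 members supplied 6.34%, 8.22%, 9.10% and 7.19%. The 3 Hist3 members supplied 1.08%, 5.82%, 7.28% and 10.03%, and Hist4h4 0.13%, 1.88%, 1.18% and 0.43%. Hist4h4 thus had a small share of the signal in every plate, although it was the member detected in the most kept cells. These shares are of FPKM, which is per length of transcript.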
